A study of Homo sapiens with 2 samples.

Results

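Notch receptors, their ligands and genes of the HES family were followed in C4-2B ENZR, a human prostate cancer cell line made resistant to the prostate cancer drug enzalutamide. The set holds 10 genes of 26447 listed by symbol in the RNA sequencing tables: the receptors NOTCH1, NOTCH2, NOTCH3 and NOTCH4, the ligands JAG1, JAG2 and DLL1, and the transcriptional repressors HES1, HES2 and HES6. They were chosen by symbol as members of 1 pathway, with earlier results of these data known, and all 10 were found in both tables. The shNRP2 group is 1 library of cells infected with a lentivirus that expresses a short hairpin RNA against the coding region of NRP2. The shControl group is 1 library of the same line with a non-targeting hairpin. Both were selected with an antibiotic and grown in RPMI 1640 with 10% serum, 1% penicillin/streptomycin and 20 µM enzalutamide. A single hairpin was used against NRP2, so an effect of lower NRP2 and an effect of that hairpin's own sequence cannot be told apart. The sources used here do not say whether a library came from a pool of infected cells or from 1 clone. With 1 library a group there is no spread between replicates, no difference below has a replicate check, and no p-value between conditions is given.

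Notch receptors are cell surface proteins that are cut when a ligand on a neighbouring cell pulls on them. ADAM proteases make the first of these cuts and gamma-secretase the next, which frees the intracellular part of the receptor to enter the nucleus, where it turns the DNA-binding protein RBPJ from a repressor into an activator. Several HES and HEY genes, HES1 among them, are classic targets. Whether HES2 and HES6 respond to Notch in these cells was not tested. Products such as HES1 are repressors that, in neural and neuroendocrine tissues, hold back proneural factors. Neuroendocrine prostate cancer, the subject of the series, is a form in which the ligand gene DLL3 is often active.

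The shNRP2 library held 22992304 reads on genes and the shControl library 21052178. NRP2, which encodes the co-receptor neuropilin-2, had 7 reads (0.330 CPM) in shNRP2 and 20 reads (0.974 CPM) in shControl, a ratio of 0.339 with a 95% counting interval from 0.121 to 0.835, so the target was low in both libraries. Here CPM is the deposited value, reads scaled by TMM to a common library size. The 9 luminal prostate markers examined all reached a mean of 1 CPM and summed to 3909 CPM in shNRP2 and 3448 CPM in shControl. Of these, 7 had higher values in shNRP2, among them KLK3 (41.0 CPM in shNRP2, 5.60 CPM in shControl) and CDH1 (788 CPM in shNRP2, 529 CPM in shControl), and FOLH1 and HOXB13 had slightly lower ones. Of the neuroendocrine markers, CHGA had 1 read in each library, SYP 31 reads in each, and INSM1 0 reads in shNRP2 and 2 in shControl. Marker lists of other cell types summed to 34.7 CPM in shNRP2 and 44.0 CPM in shControl for fibroblasts (5 genes, of which DCN was at 0 in both), to 3.87 CPM in shNRP2 and 4.09 CPM in shControl for endothelium (4 genes) and to 10.5 CPM in shNRP2 and 7.40 CPM in shControl for leukocytes (4 genes). Each of these 3 sums was mostly 1 gene, in shNRP2 COL1A1 at 32.5 CPM, VWF at 3.40 CPM and CD68 at 9.95 CPM. Both libraries are of a cultured line, and the part of these marker genes in the results was not tested. In bulk RNA, fewer cells that express a gene and less RNA of it per cell cannot be told apart.

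Of the 10 members, 9 reached a mean of 1 CPM across the libraries and were compared. NOTCH3, DLL1 and HES2 were at least 1.5-fold higher in shNRP2 and JAG1 at least 1.5-fold lower, on the scale log2(CPM + 1), which understates the change of low genes. NOTCH1, NOTCH2, JAG2, HES1 and HES6 lay between. The background over all 13316 genes compared was 5.78% past 1.5-fold upward and 3.57% past it downward, and the members' shares rest on very few genes chosen with results known. The balance of the background depended on scaling: 769 genes were higher and 476 lower as deposited, 587 and 646 with equal library totals, while 3 members were higher and 1 lower in either case. An exact conditional binomial test of the recovered reads with Benjamini-Hochberg adjustment, which compares these libraries and not the conditions, called 5 members higher and 1 lower, but it called 52.2% of all genes. The median log2 change was 0.21 over the 9 members and 0.03 over all genes compared. On the log2(CPM + 1) scale none of the 9 was at least 2-fold higher, which 1.46% of all genes were, although the plain ratio of HES2 was 2.07. JAG1 was the only member at least 2-fold lower, which 0.526% of all genes were.

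**Figure D1:**
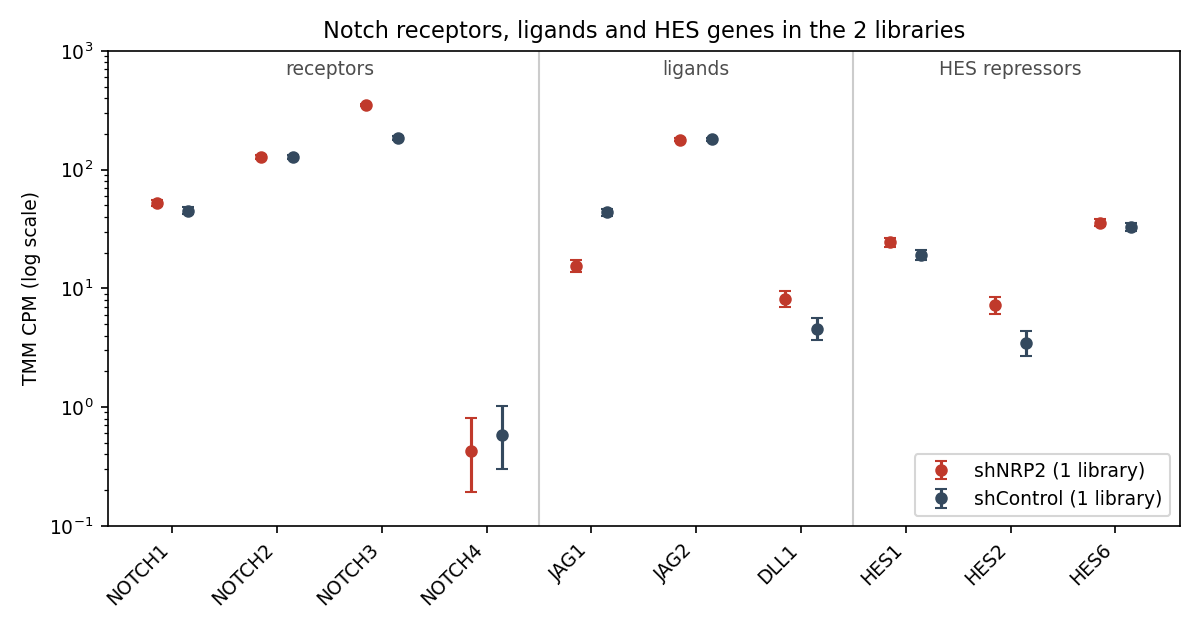
Level of each of the 10 members in TMM CPM on a log axis, shNRP2 (red) left of shControl (dark), 1 library each. Bars are exact Poisson 95% intervals of the reads. The counting interval of the ratio, not drawn, stood above 1 for NOTCH1, NOTCH3, DLL1, HES1 and HES2 and below 1 for JAG1. It included 1 for NOTCH2, NOTCH4, JAG2 and HES6. Over all genes compared it stood above 1 for 32.7% and below 1 for 24.0%.

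The receptor genes differed in level and in change. NOTCH3, a receptor best known from vascular smooth muscle and also expressed in epithelial tumours, was at 351 CPM (7447 reads) in shNRP2 and 184 CPM (3776 reads) in shControl. The ratio was 1.91 (1.84 to 1.99) and the log2 change 0.93. Only 1.82% of the genes compared had a change as high or higher. NOTCH1, the receptor most studied in T cells and in epithelia, was at 52.4 CPM in shNRP2 and 45.03 CPM in shControl. Its ratio of 1.16 (1.07 to 1.27) stood above 1 beyond counting error, as did 32.7% of all genes compared, but was far under 1.5-fold. NOTCH2, a receptor with broad epithelial expression, was level at 128 CPM in shNRP2 and 127 CPM in shControl, with a ratio of 1.01 (0.957 to 1.07). Short copies of the N-terminal part of NOTCH2 share sequence with it, and reads may be split between them. The listed copy NOTCH2NL was at 42.9 CPM in shNRP2 and 45.2 CPM in shControl, and the sum of NOTCH2 and NOTCH2NL was also level, at 171 CPM in shNRP2 and 172 CPM in shControl. NOTCH4, a receptor known mainly from endothelium, had 9 reads (0.424 CPM) in shNRP2 and 12 reads (0.584 CPM) in shControl and was under the mean of 1 CPM. Its ratio of 0.727 had an interval from 0.270 to 1.88, so no difference was detectable at this depth. In the GENCODE annotation its exons also overlap those of GPSM3.

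NOTCH3 was the leading receptor in both libraries, and by more in shNRP2. Levels of different genes can be compared only per length, and per kilobase of transcript NOTCH3 stood at 40.5 CPM in shNRP2 and 21.2 CPM in shControl. NOTCH2 followed with 11.3 CPM per kilobase in shNRP2 and 11.1 in shControl, then NOTCH1 with 5.63 in shNRP2 and 4.84 in shControl, and NOTCH4 came last with 0.0629 in shNRP2 and 0.0866 in shControl. The order NOTCH3, NOTCH2, NOTCH1, NOTCH4 was the same in both libraries, and neighbours in it were separated by more than their counting intervals. Of the reads on the 4 receptors, NOTCH3 took 66.0% (65.1 to 66.9, Clopper-Pearson) in shNRP2 and 51.6% (50.4 to 52.7) in shControl. The share of NOTCH2 was 24.1% in shNRP2 and 35.6% in shControl, and that of NOTCH1 was 9.85% in shNRP2 and 12.6% in shControl. The summed receptor level was 532 CPM in shNRP2 and 356 CPM in shControl, a ratio of 1.49 (1.45 to 1.54), and most of the difference between the sums was in NOTCH3.

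**Figure D2:**
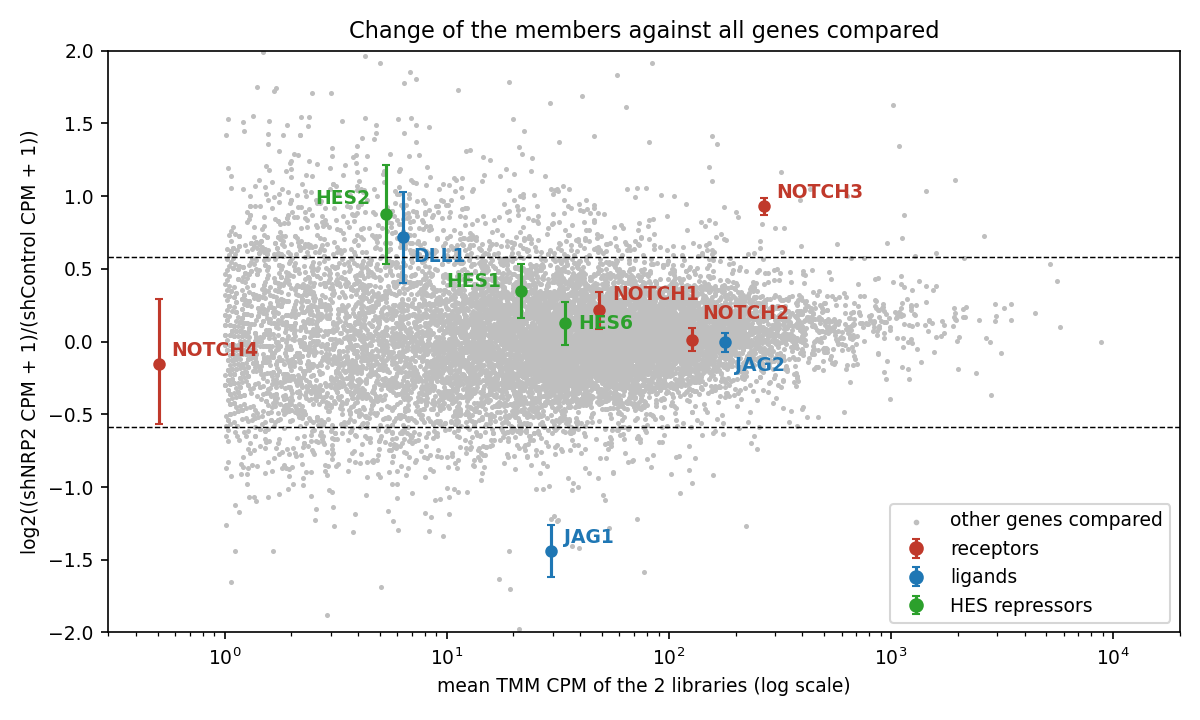
Log2 change against the mean CPM (log axis) of the 10 members, in colour by role with 95% counting intervals, and of the 13316 genes compared, in grey. Dashed lines mark 1.5-fold, the vertical axis ends at 2 in each direction, and 25 genes lie beyond it. NOTCH3, HES2 and JAG1 stand outside the central 95% of all genes compared (-0.66 to 0.84). NOTCH1, NOTCH2, JAG2, DLL1, HES1 and HES6 lie within it. The spread among genes of like level was not computed.

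The ligand genes went in different directions. JAG1, a ligand of the Jagged family that is active in epithelial and vascular development, was at 15.5 CPM (328 reads) in shNRP2 and 43.7 CPM (897 reads) in shControl. This was 2.82-fold lower (2.48 to 3.21), with a log2 change of -1.44, the 16th lowest of all genes compared. JAG2, the other Jagged ligand, was at 179 CPM in both libraries, with 3791 reads in shNRP2 and 3684 in shControl and a ratio of 0.997 (0.952 to 1.04). With equal library totals that ratio was 0.942 (0.900 to 0.986). A further GENCODE gene model, not analysed here, overlaps JAG2 exons on the same strand. The paralogs thus differed in their change between the same libraries, with intervals far apart. DLL1, a Delta family ligand used in lateral inhibition between neighbouring cells, was at 8.16 CPM (173 reads) in shNRP2 and 4.58 CPM (94 reads) in shControl. Its ratio was 1.78 (1.38 to 2.32), and 3.54% of the genes compared had a change as high or higher.

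The remaining canonical ligands were DLL3 and DLL4. DLL3, an atypical ligand that acts inside the cell on receptors and is a surface marker of neuroendocrine tumours, was at 23.0 CPM (487 reads) in shNRP2 and 18.5 CPM (380 reads) in shControl. The ratio was 1.24 (1.08 to 1.42), under 1.5-fold. DLL4, a ligand of sprouting vessels, had 19 reads (0.896 CPM) in shNRP2 and 6 reads (0.292 CPM) in shControl and was not compared. Its ratio of 3.07 had a wide interval, from 1.18 to 9.39.

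The make-up of the ligand pool shifted away from JAG1 while its sum moved little. Of the reads on the 5 canonical ligands, JAG1 took 6.84% (6.14 to 7.59) in shNRP2 and 17.7% (16.7 to 18.8) in shControl. JAG2 took 79.0% in shNRP2 and 72.8% in shControl, DLL3 took 10.2% in shNRP2 and 7.51% in shControl, and DLL1 took 3.61% in shNRP2 and 1.86% in shControl. The summed ligand level was 226 CPM in shNRP2 and 246 CPM in shControl, a ratio of 0.918 (0.883 to 0.956). Per kilobase of transcript JAG2 led in both libraries, at 30.6 CPM in shNRP2 and 30.7 in shControl, and DLL3 followed at 9.85 in shNRP2 and 7.93 in shControl. In shNRP2, JAG1 (2.60 CPM per kilobase) and DLL1 (2.57) could not be separated by their counting intervals. In shControl, JAG1 (7.35) was above DLL1 (1.44), and its interval overlapped that of DLL3.

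**Figure D3:**
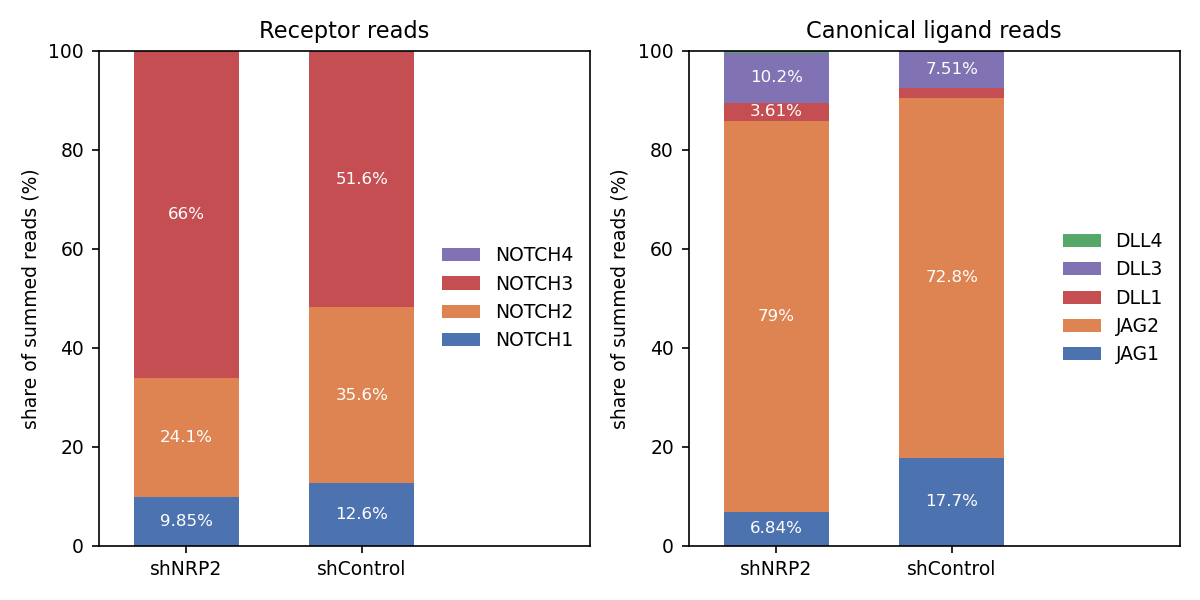
Share of each gene in the summed reads of the 4 receptors (left) and of the 5 canonical ligands (right), as stacked bars from 0 to 100%, shNRP2 left of shControl. NOTCH3 takes 66.0% of receptor reads in shNRP2 and 51.6% in shControl, and JAG1 takes 6.84% of ligand reads in shNRP2 and 17.7% in shControl.

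HES genes encode basic helix-loop-helix repressors that recruit Groucho (TLE) corepressors. The promoters of HES1 and HES2 are shown because HES1 is the textbook direct target of RBPJ, whereas HES2 had the larger change here. The sequences are the 250 bases before the RefSeq start of each gene in build GRCh38.p14, with the RBPJ core TGGGAA (or its reverse complement TTCCCA) in capitals. HES1 lies on the plus strand, window chr3:194135898-194136147, and HES2 on the minus strand, window chr1:6419920-6420169.
HES1: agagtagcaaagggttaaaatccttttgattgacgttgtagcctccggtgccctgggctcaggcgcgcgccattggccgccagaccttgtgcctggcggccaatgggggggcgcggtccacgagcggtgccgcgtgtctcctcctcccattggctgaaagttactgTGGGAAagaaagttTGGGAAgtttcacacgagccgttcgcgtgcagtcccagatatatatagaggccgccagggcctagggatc
HES2: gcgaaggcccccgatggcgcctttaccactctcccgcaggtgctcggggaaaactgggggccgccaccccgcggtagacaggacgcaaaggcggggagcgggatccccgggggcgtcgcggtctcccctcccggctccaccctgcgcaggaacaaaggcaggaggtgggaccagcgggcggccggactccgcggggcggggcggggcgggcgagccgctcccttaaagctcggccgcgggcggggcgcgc
HES1 holds 2 matches, which begin 84 and 70 bases before the start, and HES2 holds none. Windows were found for 9 of the 10 members, and HES1 was the only one of these 9 with a match to this sequence. Other forms of the RBPJ site were not searched. Of 35116 promoter windows in the same table, 20.9% hold at least 1 match and 2.90% at least 2. A match is a description of these letters and no measurement of binding.

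HES2, a repressor of the family with few studied roles in the prostate, was at 7.17 CPM (152 reads) in shNRP2 and 3.46 CPM (71 reads) in shControl. The ratio was 2.07 (1.55 to 2.79) and the log2 change 0.87, and 2.21% of the genes compared had a change as high or higher. HES1 was at 24.4 CPM (518 reads) in shNRP2 and 19.0 CPM (390 reads) in shControl. Its ratio of 1.29 (1.13 to 1.47) was above 1 beyond counting error and under 1.5-fold. HES6, which in mouse neural cells opposes HES1 and favours proneural factors, was at 35.8 CPM (759 reads) in shNRP2 and 32.7 CPM (672 reads) in shControl. The interval of its ratio of 1.09, from 0.985 to 1.22, included no difference. Per kilobase of transcript HES6 stood above HES1 in both libraries, at 24.6 CPM against 15.5 in shNRP2 and at 22.5 against 12.03 in shControl. HES2 was lowest of the 3, at 1.68 in shNRP2 and 0.811 in shControl, though the transcript used is mostly untranslated. Per kilobase of coding length HES2 was at 13.8 in shNRP2 and 6.66 in shControl, still below HES1 at 29.1 in shNRP2 and 22.6 in shControl.

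Among the 10 HES and HEY genes, 6 were compared, 2 of which were at least 1.5-fold higher and 0 lower, with a median log2 change of 0.26. Over all genes compared 5.78% were higher and 3.57% lower, the background for the count of every list below as well. Each list is small and was chosen with results known. Without the filter on low values, which adds 4 genes at or near 0 reads, the median was 0.06. The higher gene beside HES2 was HEY1, a repressor that often acts in a pair with HES proteins. It was at 3.07 CPM (65 reads) in shNRP2 and 1.66 CPM (34 reads) in shControl, a ratio of 1.85 (1.21 to 2.89). With both libraries set to equal totals its log2 change was 0.55, just under 1.5-fold. HES4, picked after its value was known, went the other way within counting error, at 34.0 CPM in shNRP2 and 37.2 CPM in shControl, with a ratio of 0.913 (0.823 to 1.01). HES3, HES5, HEY2 and HEYL had between 0 and 3 reads in either library.

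Other genes that Notch is known to activate in some tissues did not move as a group. Of 10 listed, NOTCH3 itself among them, 8 were compared, 1 was higher and 1 lower at 1.5-fold, and the median log2 change was 0.06. SOX9, a transcription factor of progenitor cells, was the lower gene, at 14.01 CPM in shNRP2 and 26.6 CPM in shControl, a ratio of 0.527 (0.456 to 0.608). NRARP, a feedback inhibitor of the nuclear Notch complex, was picked after its value was known. It was at 41.98 CPM in shNRP2 and 32.7 CPM in shControl, a ratio of 1.28 (1.16 to 1.42). Of all genes compared, 13.4% had a change as high or higher. Within the list 4 genes had a log2 change above 0 and 4 below it. Counting intervals stood above 1 for 4 and below 1 for 2, beside 32.7% and 24.0% of all genes. MYC, also picked after its value was known, was among the genes below 0, with a ratio of 0.947 (0.911 to 0.984).

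The list of Groucho family genes, corepressors of HES proteins among them, included a gene that was clearly lower. TLE1 was at 17.4 CPM (368 reads) in shNRP2 and 41.7 CPM (856 reads) in shControl, a log2 change of -1.22 and a ratio of 0.416 (0.368 to 0.471). TLE3, picked after its value was known, was at 346 CPM in shNRP2 and 497 CPM in shControl, a ratio of 0.696 (0.675 to 0.717) that stayed inside 1.5-fold. Of 5 genes listed, 4 were compared, 0 were higher and 1 lower, and the median was -0.18. TLE2 and AES, also picked after their values were known, were slightly higher, with ratios of 1.26 (1.11 to 1.44) and 1.11 (1.07 to 1.16).

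Genes that process the receptors were mostly near level. Of 10 glycosyltransferases and furin, which mature the receptor's extracellular part, 9 were compared, 1 was higher and 0 lower, with a median of 0.12. The higher gene was GXYLT2, which adds xylose to glucose on the EGF repeats, at 8.11 CPM in shNRP2 and 4.82 CPM in shControl, a ratio of 1.68 (1.31 to 2.18). The Fringe enzyme LFNG, which alters the response of receptors to Delta and Jagged ligands, was picked after its value was known. It was at 30.9 CPM in shNRP2 and 22.6 CPM in shControl, a ratio of 1.37 (1.21 to 1.55). In this list 8 genes had a log2 change above 0 and 1 below it, but counting intervals stood above 1 for only 4 of the 9. Of the 13316 genes compared, 7207 were above 0, and 32.7% had intervals above 1. The gene below 0 was FURIN, also picked after its value was known, with a ratio of 0.747 (0.680 to 0.820). All 8 genes of the ADAM and gamma-secretase cuts were compared, 1 was higher and 0 lower, with a median of 0.10. The higher gene was APH1B, a gamma-secretase subunit, at 46.9 CPM in shNRP2 and 26.5 CPM in shControl, a ratio of 1.77 (1.59 to 1.97). Of the 8 genes, 5 had a log2 change above 0 and 3 below it, with counting intervals above 1 for 4 and below 1 for 1. The gene with its interval below 1 was PSEN2, picked after its value was known, with a ratio of 0.776 (0.678 to 0.888).

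RBPJ, the DNA-binding protein of the pathway, was at 97.4 CPM in shNRP2 and 90.9 CPM in shControl, a ratio of 1.07 (1.01 to 1.14). With equal library totals the interval included 1, from 0.950 to 1.08. Of 9 genes of the RBPJ coactivator complex, 8 were compared and none passed 1.5-fold (median 0.10). Of 13 RBPJ corepressors, 12 were compared, with 1 higher and 1 lower (median 0.07). L3MBTL3, a methyl-lysine reader that binds RBPJ, was at 11.3 CPM in shNRP2 and 4.82 CPM in shControl, a ratio of 2.34 (1.84 to 2.99). CTBP2, a corepressor of many transcription factors, was at 86.5 CPM in shNRP2 and 160 CPM in shControl, a ratio of 0.540 (0.510 to 0.572).

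Regulators of ligand uptake held the largest increase of the pathway. NEURL1, homologue of the fly ubiquitin ligase neuralized that drives uptake of Delta, was at 10.8 CPM (229 reads) in shNRP2 and 3.07 CPM (63 reads) in shControl, a log2 change of 1.54 and a ratio of 3.52 (2.65 to 4.73). The other 6 genes of the list stayed inside 1.5-fold, and the median of all 7 was 0.16. All 13 genes of receptor turnover and inhibition also stayed inside 1.5-fold, between -0.31 and 0.41, with a median of -0.03.

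Of the 8 listed proneural factors, ASCL2 was the only one that reached a mean of 1 CPM, at 11.2 CPM (237 reads) in shNRP2 and 5.50 CPM (113 reads) in shControl, a ratio of 2.03 (1.62 to 2.57). Despite its name ASCL2 is known mainly from trophoblast and intestinal stem cells, not from neurons.

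**Figure D4:**
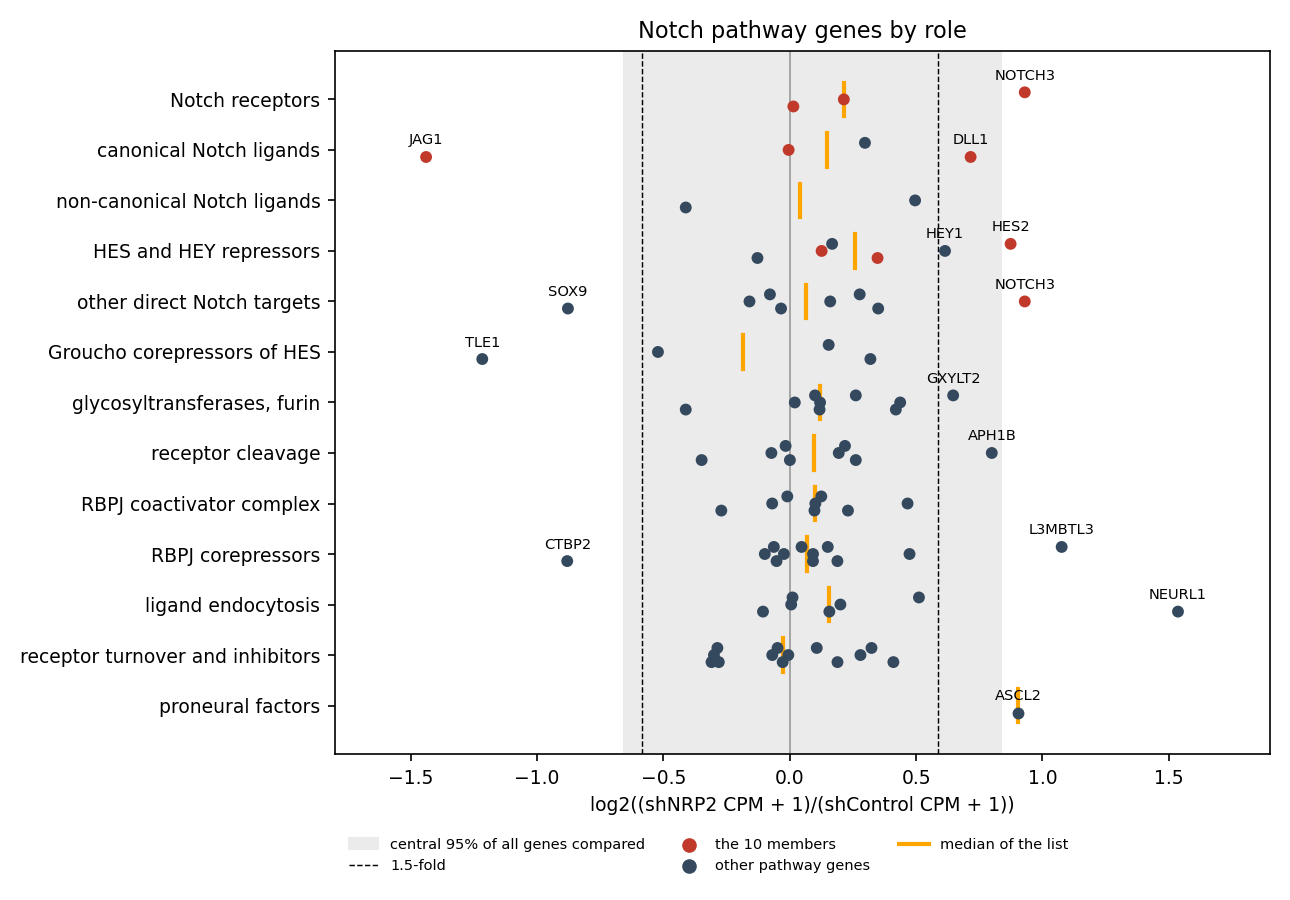
Log2 change of each Notch pathway gene that reached a mean of 1 CPM, by role, the 10 members in red and other genes dark. Orange bars are list medians, the grey band holds the central 95% of all genes compared (-0.66 to 0.84) and dashed lines mark 1.5-fold. JAG1, TLE1, CTBP2 and SOX9 stand left of the band, and NOTCH3, HES2, ASCL2, L3MBTL3 and NEURL1 stand right of it.

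Across the 97 pathway genes other than the members, 75 were compared, of which 6 passed 1.5-fold upward and 3 downward. These are 8% and 4%, near the backgrounds of 5.78% and 3.57%, and the median log2 change was 0.10 beside 0.03 over all genes. Counting intervals stood above 1 for 34 of the 75 and below 1 for 14, where 32.7% and 24.0% of all genes did so.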

How the data were processed

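Each deposited table gives 1 signal value for every gene symbol, which the authors normalized by TMM and labelled CPM, per the labels of the files. The submitters' processing notes name bcl2fastq (2.17), RSEM (1.2.15), Bowtie2 (2.1.0) and edgeR, and the build hg19. The sources used here give no settings, annotation or strandedness. The columns sum to 1084413 (shNRP2) and 1024943 (shControl), so their scale is not CPM in the strict sense, and this departs from the unit assumed in the design.

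Dividing by the value of 1 read (0.0472 in shNRP2, 0.0487 in shControl) gave whole numbers within 0.01 read for 100% of values. The whole counts behind the values were thus recovered and are called reads here. RSEM estimates how reads shared by several genes are split, so these counts may be rounded estimates. The intervals do not cover error in that split. Another 28 symbols had become calendar dates, held 0.184% (shNRP2) and 0.181% (shControl) of the reads and were left out. With 1 library a group there is no test between conditions. Changes are log2((shNRP2 CPM + 1)/(shControl CPM + 1)), and ratios carry exact conditional binomial (Clopper-Pearson) 95% intervals that cover counting error only, as do Poisson intervals of levels. Genes were compared where they reached a mean of 1 CPM. Beside the 10 members, the text names pathway genes past 1.5-fold, RBPJ, DLL3, DLL4 and NRP2; any other pathway gene is marked as picked after its value was known, and NOTCH2NL and cell type markers serve as checks. Members and lists were chosen with earlier results of these data known. Some genes with fixed names are not reported here. Lengths are those of the GENCODE 29 transcript with the longest coding part, matched by symbol (build GRCh38, no coordinates used). Calculations were run in Python 3.11.15 with scipy 1.17.1. In simulated Poisson reads they recovered planted changes that were larger than most reported here. These were planted only in genes above the level of DLL1 and HES2. The simulation checked the code, and it cannot bear on smaller changes, lower genes or the spread between replicates. Alternatives were other pseudocounts, filters, thresholds and scalings, among them TMM by edgeR 4.0.16 on the recovered reads.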

Additional observations from a re-analysis of the deposited data

How the results depend on the processing

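NOTCH3 and JAG1 kept their direction and stayed past 1.5-fold under all 6 alternative pseudocounts and scalings (log2 0.85 to 0.93 and -1.51 to -1.25). DLL1 and HES2 stayed past it under 5 of 6 and dropped to 0.46 and 0.53 with a pseudocount of 5 CPM, which damps low genes by construction. NOTCH2 changed sign with scaling (-0.07 to 0.01). With equal totals the ratio of JAG2 was 0.942 (0.900 to 0.986). Members at least 1.5-fold higher numbered 3 as reported, 1 with a pseudocount of 5 CPM and 0 at 2-fold. They numbered 5 where the counting interval had to exclude 1, and 5 by an exact conditional binomial test of the reads with Benjamini-Hochberg adjustment, which compares these libraries, not the conditions, and called 6954 of all genes (52.2%), 4028 higher and 2926 lower.

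Of 84 pathway genes compared, the members included, 9 were higher and 4 lower at the main settings. These are 10.7% and 4.76%, beside 5.78% and 3.57% of all genes, and hold 3 higher members and 1 lower, chosen with results known. Pathway genes higher numbered 5 with a pseudocount of 5 CPM. Higher and lower numbered 2 and 2 at 2-fold, 39 and 15 by interval (32.7% and 24.0% of all genes), and 36 and 14 by the binomial test, which called 52.2% of all genes. All genes higher and lower, 769 and 476 as reported, numbered 329 and 159 with a pseudocount of 5 CPM, 465 and 310 with a filter at 5 CPM, 194 and 70 at 2-fold, and 4360 and 3199 by interval. With equal library totals they numbered 587 and 646, which turned the balance, and other scalings gave 682 to 711 higher and 528 to 558 lower. At 2-fold they numbered 320 and 136 with a pseudocount of 0.25 CPM, 47 and 20 with one of 5 CPM, and 101 and 44 with the filter at 5 CPM.

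Per transcript length NOTCH3 took 70.5% of receptors in shNRP2 and 56.9% in shControl, and without NOTCH2 86.9% of reads in shNRP2 and 80.1% in shControl. Per length JAG1 took 5.67% of ligands in shNRP2 and 15.5% in shControl, and JAG2 66.7% in shNRP2 and 64.6% in shControl. Scaling moved the median of all genes to between -0.05 and 0.00. No paired analysis was possible because each group holds 1 library, so there is no test between conditions, and no replicate could be left out.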
